A study of Mus musculus with 28 samples.

Results

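The comparison described here sets the livers of 4 male EC-Myc KO mice fed a high-fat/cholesterol diet (HFC) against those of 4 male EC-Myc KO mice fed a low-fat control diet (CTD). EC-Myc KO names mice in which c-Myc was deleted in endothelial cells. The 8 libraries were taken by their column names in the male count table, HFC animals 414, 415, 539 and 540 and CTD animals 298, 303, 304 and 311, and they are 8 of the 28 libraries of the series. All 32544 genes of the table entered, and the 14078 that passed a filter on low counts were tested. The series as a whole holds both sexes, both diets and floxed control (CT) animals beside the KO animals, and its title names liver inflammation and fibrosis under the diet as its subject.

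All 8 mice were C57BL/6 males given as 13 weeks old, with 1 whole-liver library of total RNA each. Both groups had received tamoxifen at 5 weeks of age to activate Cre, so tamoxifen and the deletion were shared by the animals on both diets. The diets began 2 weeks after tamoxifen and lasted 5 weeks. These steps add up to 12 weeks of age and not to 13. The promoter driving Cre is not given in the sources used here. CTD animals carried numbers from 298 to 311 and HFC animals from 414 to 540, so diet and any difference between cohorts cannot be told apart. CT males and KO females, used for comparison at the end, had the same strain, stated age, tamoxifen schedule and diets. Each library came from its own animal, and p-values measure the spread between those animals.

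Dietary cholesterol and fat reach the liver mainly as lipoprotein remnants. As background, hepatocytes answer excess sterol by lowering their own cholesterol synthesis through SREBP2, by raising sterol efflux through LXR receptors, and by adjusting the conversion of cholesterol to bile acids. When lipid and sterol accumulate, resident Kupffer cells and recruited monocytes take up debris, present antigen on MHC class II and release chemokines. Hepatic stellate cells can then turn into matrix-producing cells, and sinusoidal endothelial cells display adhesion molecules that let leukocytes enter.

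Library totals of the 8 KO males lay between 22196484 and 22652285 counts. TMM scaling factors, which correct for differences in RNA composition, ran from 0.896 to 0.953 in CTD animals and from 1.07 to 1.19 in HFC animals. Major urinary protein (Mup) genes held 5.35% to 6.04% of counts on CTD and 1.43% to 3.08% on HFC. In a principal component analysis of the 500 most variable genes, the first component held 70.3% of the variance. CTD animals scored from -29.0 to -26.8 on it, and HFC animals 414, 415, 539 and 540 scored 40.9, 25.0, 18.4 and 26.5. Animal 414 stood furthest from the CTD animals, and it was the most extreme of the 4 HFC animals for 56.4% of the genes called higher and 50.8% of those called lower. Results that rest on this animal are given with and without it. Levels below are CPM, counts scaled to a common library size with TMM factors, listed for animals 298, 303, 304 and 311 on CTD and for 414, 415, 539 and 540 on HFC.

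Myc itself was measured at 20.1, 6.87, 14.9 and 3.09 CPM on CTD against 20.02, 8.896, 5.62 and 11.2 CPM on HFC, and the diets overlapped widely (log2 fold change 0.03, SE 0.53, adjusted p = 0.977, edgeR's quasi-likelihood test). In whole liver this level includes Myc from cells in which it was not deleted.

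edgeR's quasi-likelihood F test was run on 14078 genes, of which 4102 were called at a Benjamini-Hochberg adjusted p under 0.05, which is 29.1%. Of these, 2184 were higher on HFC (15.5%) and 1918 lower (13.6%), and 1372 of the called genes changed more than 2-fold, 1119 upwards and 253 downwards. Levels did not overlap between the 4 and 4 animals for 4227 genes (30.0% of those tested, 15.4% higher and 14.7% lower), and 3516 genes were both called and free of overlap. Without animal 414 the count fell to 3064. The split by direction depended on scaling: scaled by library totals alone, 6092 genes were called, 5581 higher and 511 lower, and the median log2 fold change over all genes moved from -0.02 to 0.26. Directions below are relative to the TMM baseline, in which the median gene did not move.

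MHC class II genes, which present peptides to CD4+ T cells, showed the highest median of all gene lists. All 10 members tested were called higher, against 15.5% of all genes, with a median log2 fold change of 3.06 (median over all genes -0.02). H2-Aa, an alpha chain on chromosome 17 (chr17:34282744-34287823, minus strand, GRCm38), read 18.2, 16.9, 17.1 and 17.2 CPM on CTD against 228, 146, 229.7 and 174 CPM on HFC (log2 fold change 3.49, SE 0.27, adjusted p = 9.53e-07). Its beta-chain partner H2-Ab1 stood at 16.8, 14.5, 13.1 and 16.7 CPM on CTD against 185, 137, 196 and 147 CPM on HFC (log2 fold change 3.44, SE 0.25, adjusted p = 6.34e-07). H2-Eb1 rose by 3.62 (adjusted p = 1.45e-06), and H2-DMb1, a subunit of the chaperone that exchanges peptides on class II molecules, by 3.03 (adjusted p = 5.14e-07). In each of these genes the lowest HFC animal stood more than 5-fold above the highest CTD animal, and animals 414 and 539 stood above 415 and 540. Summed over the list, class II genes held 92.5 to 109 CPM on CTD and 860 to 1319 CPM on HFC. All 10 calls held without animal 414 and with only animals 539 and 540 on HFC.

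These genes moved together, and their promoters share a short element, shown here because class II genes are classically read through a conserved promoter module that ends in a Y box, an inverted CCAAT sequence. The 100 bases before the RefSeq start (GRCm38.p6) of the 3 matched members with the smallest p-values are printed 5′ to 3′ on the gene's strand, with the Y box letters GATTGG in capitals on either strand. H2-DMb1 lies on the plus strand at chr17:34153091-34153190, H2-Aa on the minus strand at chr17:34287824-34287923 and H2-Eb1 on the plus strand at chr17:34305767-34305866.
H2-DMb1: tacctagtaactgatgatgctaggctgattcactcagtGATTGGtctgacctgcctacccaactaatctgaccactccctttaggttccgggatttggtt
H2-Aa: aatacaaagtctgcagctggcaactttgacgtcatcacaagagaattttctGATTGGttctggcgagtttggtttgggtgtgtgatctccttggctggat
H2-Eb1: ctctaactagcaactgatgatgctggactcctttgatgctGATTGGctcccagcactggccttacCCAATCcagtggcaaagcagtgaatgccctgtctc
The first capital lies 62 bases before the start in H2-DMb1, 49 in H2-Aa and 60 in H2-Eb1, which has another copy on the other strand at 35. Of the 10 class II list members 7 were matched in the promoter table, and all 7 held GATTGG within 250 bases before a start, against 21.7% of tested genes with a promoter there. A match of letters is a description of the sequence and not evidence of binding.

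General macrophage and monocyte markers rose as a block. All 20 were called higher (median 1.79), all 20 remained called without animal 414, and none overlapped between the diets. Ptprc, the pan-leukocyte phosphatase CD45, was measured at 8.68, 7.92, 8.34 and 7.66 CPM on CTD against 36.6, 26.2, 29.2 and 34.8 CPM on HFC (log2 fold change 1.96, SE 0.16, adjusted p = 5.14e-07). Aif1, an actin-binding protein of activated macrophages, rose by 1.999 (adjusted p = 6.42e-07), and Spi1, the myeloid transcription factor PU.1, by 1.78 (adjusted p = 1.64e-06). The summed level of the list was 333 to 421 CPM on CTD and 1030 to 1404 CPM on HFC. In bulk liver more cells of a type and more RNA per cell cannot be told apart.

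Kupffer cells, the resident macrophages of the sinusoid, were represented by 8 markers, of which 7 were called higher (median 1.23). Cd5l, a secreted scavenger protein, read 64.2, 76.96, 63.96 and 75.2 CPM on CTD against 292, 233, 252 and 308 CPM on HFC (log2 fold change 1.95, SE 0.18, adjusted p = 1.72e-06). Timd4, a receptor for phosphatidylserine on dying cells, had levels of 5.77, 5.98, 6.09 and 6.77 CPM on CTD against 17.3, 19.7, 22.2 and 25.02 CPM on HFC (log2 fold change 1.77, SE 0.16, adjusted p = 7.75e-07). Clec1b and Vsig4, a complement receptor, rose by 1.21 (adjusted p = 3.54e-06) and 1.26 (adjusted p = 4.8e-06). The member that was not called was Cd163, the haemoglobin scavenger receptor, at 14.6 to 28.5 CPM on CTD and 10.9 to 29.3 CPM on HFC (0.05, adjusted p = 0.940). Animal 414 was the lowest HFC animal for Timd4 and Cd163 and for the mean of the Kupffer list, at 1.19 log2 units above CTD against 1.25 to 1.52 in the other HFC animals. It had the highest mean of the macrophage and monocyte list, at 1.89 against 1.42 to 1.75.

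Markers of lipid-associated and recruited macrophages were called higher for 17 of 18 and lower for 1 (median 2.16). Ccr2, the receptor that draws monocytes from blood, read 0.703, 1.44, 1.41 and 1.37 CPM on CTD against 9.75, 4.63, 5.87 and 5.99 CPM on HFC (log2 fold change 2.41, SE 0.25, adjusted p = 3.38e-06). Cd44, a hyaluronan receptor, rose by 2.004 (adjusted p = 5.74e-07). Gpnmb, a lysosomal glycoprotein of lipid-laden macrophages, stood at 0.0469, 0.349, 1.07 and 0.294 CPM on CTD against 71.5, 3.403, 7.77 and 9.25 CPM on HFC (log2 fold change 5.70, SE 1.42, adjusted p = 0.00973). Its level in animal 414 was more than 7-fold above that of any other HFC animal, and without 414 its log2 fold change was 3.94 (adjusted p = 0.0305). Without 414 the list counted 13 higher and 1 lower, with a median of 1.92. The member that fell was Fabp5, a fatty acid binding protein, at 60.1, 65.6, 98.4 and 26.8 CPM on CTD against 11.9, 13.2, 8.72 and 8.597 CPM on HFC (log2 fold change -2.56, SE 0.47, adjusted p = 0.00147).

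**Figure D1:**
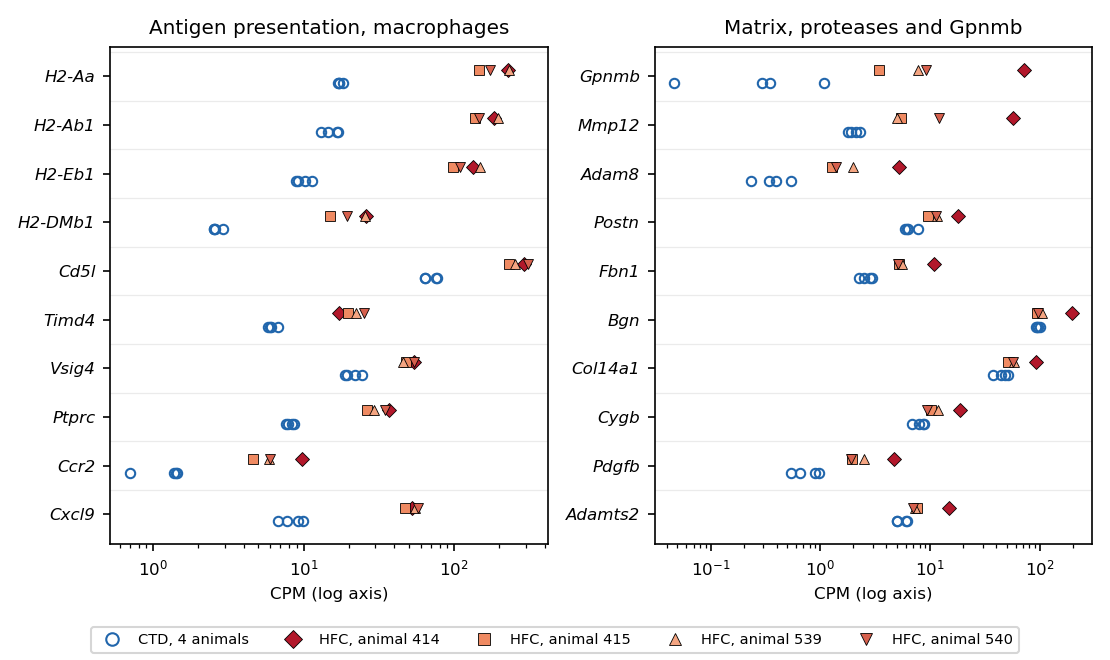
CPM on a log axis for 10 genes of antigen presentation, macrophages and chemokines (left) and 10 genes of matrix, proteases and Gpnmb (right), 1 point per KO male. The left genes separate the diets in all 4 HFC animals. On the right animal 414 (diamond) lies apart for genes such as Bgn, at 196, 93.96, 104 and 95.8 CPM on HFC. Animal 414 was also highest for Ccr2 on the left.

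Chemokines and their receptors rose for 18 of 22 members tested and fell for 1 (median 1.99), with 18 and 1 again without animal 414. Cxcl9, an interferon-induced ligand that attracts T cells, was measured at 9.14, 9.96, 6.73 and 7.802 CPM on CTD against 52.5, 47.4, 55.3 and 57.9 CPM on HFC (log2 fold change 2.66, SE 0.27, adjusted p = 9.02e-06). Cxcl10, which binds the same receptor, rose by 2.72 (adjusted p = 1.29e-05) and Ccl5 by 2.84 (adjusted p = 3.99e-05). The member that fell was Cxcl12, a chemokine of stromal and endothelial cells (-0.48, adjusted p = 0.00938), whose call was lost with library totals. Cxcl1, a neutrophil attractant, was not called (2.06 to 22.3 CPM on CTD and 7.22 to 17.6 CPM on HFC, 0.64, adjusted p = 0.528), and CTD animal 303 was above every HFC animal for it.

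Cytokine and itaconate genes were called higher for 11 of 13 and lower for none. Acod1, the enzyme that makes itaconate in activated macrophages, read 0.234, 0.0498, 0.0975 and 0.0491 CPM on CTD against 8.86, 4.26, 6.08 and 6.397 CPM on HFC (log2 fold change 5.80, SE 0.61, adjusted p = 5.87e-06), a fold change that rests on 1 to 5 counts per CTD library. Tnf stood at 0.0469, 0.0498, 0.0975 and 0.0981 CPM on CTD against 1.5999, 0.656, 0.744 and 0.733 CPM on HFC (log2 fold change 3.59, SE 0.46, adjusted p = 2.35e-05), and its fold change rests on 1 or 2 counts per CTD library. Il1b rose by 1.65 (adjusted p = 0.000151) and Il18bp, the soluble inhibitor of IL-18, by 1.71 (adjusted p = 1.45e-06). Innate sensors were called higher for 16 of 20 and lower for none (median 1.37), among them Tlr2 at 2.72 (adjusted p = 1.28e-06) and Cd180, a Toll-like receptor homologue, at 2.34 (adjusted p = 2.59e-07). Their adaptor Myd88 was not called (14.96 to 21.4 CPM on CTD and 18.02 to 19.97 CPM on HFC, 0.13, adjusted p = 0.378).

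Among genes of MHC class I and interferon response 18 of 23 were called higher and none lower, with a median of 0.65. Zbp1, a nucleic acid sensor, had levels of 6.89, 8.12, 6.34 and 7.998 CPM on CTD against 26.9, 19.1, 19.4 and 24.2 CPM on HFC (log2 fold change 1.61, SE 0.15, adjusted p = 1.61e-06). Nlrc5, the activator of class I genes, rose by 0.59 (adjusted p = 4.75e-06) with a narrow spread, 30.7 to 32.7 CPM on CTD and 44.8 to 52.4 CPM on HFC. Ubd, which encodes the ubiquitin-like modifier FAT10, read 0.281, 0.199, 0.244 and 0.442 CPM on CTD against 16.5, 4.35, 8.93 and 10.1 CPM on HFC (log2 fold change 5.07, SE 0.59, adjusted p = 2.27e-05). Ifit3, a target of type I interferon, was not called (9.19 to 21.1 CPM on CTD and 14.8 to 17.2 CPM on HFC, 0.21, adjusted p = 0.523). The interferon-stimulated response element, searched as GAAA, any 2 bases and GAAA on both strands, was present within 250 bases before the start in 8 of 17 matched members, against 3.44% of tested genes. Of those 8, 5 were called higher (B2m, Gbp2, Gbp3, Igtp and Irgm1), while Ifit1, Ifit3 and Isg15 were not called. As examples of its placement it is shown in the guanylate-binding protein genes Gbp3 (1.36, adjusted p = 1.06e-05, plus strand, chr3:142559944-142560043) and Gbp2 (2.06, adjusted p = 5.84e-05, plus strand, chr3:142620563-142620662), in capitals as it reads on the gene's strand.
Gbp3: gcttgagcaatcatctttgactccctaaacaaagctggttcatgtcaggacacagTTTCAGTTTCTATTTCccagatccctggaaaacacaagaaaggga
Gbp2: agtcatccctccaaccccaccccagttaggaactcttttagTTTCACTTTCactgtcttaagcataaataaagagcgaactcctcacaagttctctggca
In Gbp3 overlapping copies begin 45 and 39 bases before the start, and in Gbp2 a single copy begins at 59.

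Lymphocyte markers rose from low levels. T and NK cell genes were called higher for 18 of 24 and lower for none (median 1.59), summing to 15.99 to 18.7 CPM on CTD and 35.6 to 46.0 CPM on HFC. Icos, a costimulatory receptor, stood at 0.797, 0.648, 0.877 and 0.834 CPM on CTD against 2.34, 3.198, 3.93 and 3.18 CPM on HFC (log2 fold change 1.99, SE 0.25, adjusted p = 1.7e-05), and Cd3e, part of the T cell receptor complex, was measured at 0.141, 0.0996, 0.146 and 0.196 CPM on CTD against 1.302, 0.902, 1.03 and 0.652 CPM on HFC (log2 fold change 2.70, SE 0.41, adjusted p = 0.000117), which rests on 2 to 4 counts per CTD library. Cd4 was not called (1.49 to 2.05 CPM on CTD and 1.39 to 2.79 CPM on HFC, 0.25, adjusted p = 0.576). B and plasma cell genes were called higher for 10 of 13 (median 1.38), with Cd22, a B cell inhibitory receptor, at 1.78, 1.34, 1.22 and 1.28 CPM on CTD against 5.95, 4.76, 3.84 and 3.34 CPM on HFC (log2 fold change 1.67, SE 0.23, adjusted p = 5.12e-05). With only animals 539 and 540 on HFC 5 of those 13 were called. Jchain, the joining chain of secreted antibodies, varied from 3.95 to 14.2 CPM on HFC and was not called (0.94, adjusted p = 0.217).

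Dendritic cell genes were called higher for 9 of 14, among them the transcription factors Irf8 (1.72, adjusted p = 3.59e-07) and Batf3 (2.08, adjusted p = 5.01e-05) and the migration receptor Ccr7 (2.68, adjusted p = 3.39e-05, from 3 to 5 counts per CTD library). Zbtb46, a dendritic cell transcription factor that endothelial cells also express, was not called (-0.23, adjusted p = 0.437). Neutrophil genes were called higher for 5 of 10 (50% called, against 29.1% of all genes). S100a8, a calcium-binding alarmin, read 0.234, 0.697, 0.829 and 0.343 CPM on CTD against 2.34, 2.501, 2.397 and 3.99 CPM on HFC (log2 fold change 2.41, SE 0.49, adjusted p = 0.00153), and Csf3r, the G-CSF receptor, rose by 1.72 (adjusted p = 5.21e-05). Ly6g, Elane, Il1r2 and Trem1 were too low to be tested.

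Few markers of the cell type in which Myc was deleted passed the test. Of 24 endothelial and sinusoidal markers 3 were called higher and none lower (median 0.18), a share of 12.5% set against 29.1% of all genes called, and their summed level was 425 to 575 CPM on CTD and 485 to 622 CPM on HFC. Cdh5, the VE-cadherin of endothelial junctions, had levels of 21.6, 17.7, 17.01 and 22.4 CPM on CTD against 36.3, 35.7, 29.1 and 39.9 CPM on HFC (log2 fold change 0.84, SE 0.14, adjusted p = 0.000321). Stab2, a scavenger receptor of sinusoidal endothelium, read 52.6, 37.8, 35.4 and 49.9 CPM on CTD against 47.4, 60.8, 44.7 and 49.02 CPM on HFC and was not called (0.20, adjusted p = 0.293), nor was Eng, a TGF-beta co-receptor (0.11, adjusted p = 0.626). With library totals 10 of the 24 were called higher, so this count moves with the scaling.

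Among genes of endothelial activation and capillarization 5 of 13 were called higher and 1 lower (46.2% called, against 29.1% of all genes). Icam1, an adhesion molecule for leukocytes that other liver cells also carry, stood at 12.2, 12.7, 11.1 and 10.7 CPM on CTD against 36.2, 29.8, 27.98 and 28.9 CPM on HFC (log2 fold change 1.39, SE 0.13, adjusted p = 9.82e-07). Vcam1 was measured at 18.8, 30.1, 18.04 and 28.1 CPM on CTD against 69.7, 37.7, 48.3 and 61.3 CPM on HFC (log2 fold change 1.19, SE 0.28, adjusted p = 0.00652), with animal 414 highest. Vwf, a product of capillary-type endothelium, was not called (5.07 to 7.95 CPM on CTD and 5.501 to 9.27 CPM on HFC, 0.12, adjusted p = 0.688). Without 414, 3 were called higher and none lower.

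Counts of matrix genes depended on single animals. Of 28 collagen and matrix genes 14 were called higher and 1 lower, with a median of 0.82. Without animal 414 there were 3 higher and 1 lower and the median was 0.43. Leaving out CTD animal 298, 303 or 311 also lowered the number called higher, to 5, 4 and 5. The mean of the list, in log2 units above the CTD mean, was 1.45 in animal 414 and 0.40, 0.49 and 0.27 in 415, 539 and 540.

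Postn, the matricellular protein periostin, read 5.91, 6.13, 6.34 and 7.704 CPM on CTD against 18.05, 9.51, 11.7 and 11.4 CPM on HFC (log2 fold change 0.96, SE 0.19, adjusted p = 0.00152), and it was called without 414 as well (0.73, adjusted p = 0.00479). Fbn1, the microfibril protein fibrillin-1, had levels of 2.95, 2.49, 2.83 and 2.26 CPM on CTD against 10.9, 5.21, 5.58 and 5.09 CPM on HFC (log2 fold change 1.35, SE 0.29, adjusted p = 0.00265) and was likewise called without 414 (1.01, adjusted p = 0.00926). Biglycan, Bgn, stood at 96.2, 92.1, 94.2 and 99.6 CPM on CTD against 196, 93.96, 104 and 95.8 CPM on HFC: of the other HFC animals 2 lay within the CTD range and 1 just above it, and the gene was not called (0.36, adjusted p = 0.190). Without 414 its log2 fold change was 0.04.

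Metalloproteinases and their inhibitors were called higher for 7 of 16 (43.75% called, against 29.1% of all genes). The number was 3 without animal 414 and 4 without CTD animal 304 or 311. Mmp12, the macrophage elastase, read 2.298, 1.79, 1.901 and 2.11 CPM on CTD against 56.97, 5.41, 5.001 and 12.1 CPM on HFC (log2 fold change 3.29, SE 0.89, adjusted p = 0.0143), and without 414 it stood at 1.88 (adjusted p = 0.0488). Adam8, a protease of activated leukocytes, stood at 0.234, 0.398, 0.536 and 0.343 CPM on CTD against 5.17, 1.27, 1.98 and 1.39 CPM on HFC (log2 fold change 2.69, SE 0.71, adjusted p = 0.0102). Profibrotic signals were called higher for 6 of 17, a share of 35.3% near the 29.1% of all genes. Tgfb1, the central profibrotic cytokine, stood at 9.71, 7.22, 7.21 and 7.31 CPM on CTD against 23.3, 17.01, 18.2 and 15.8 CPM on HFC (log2 fold change 1.24, SE 0.18, adjusted p = 0.000110). Pdgfb, a stellate cell mitogen, was measured at 0.656, 0.897, 0.975 and 0.5398 CPM on CTD against 4.65, 1.93, 2.52 and 1.92 CPM on HFC (log2 fold change 1.84, SE 0.34, adjusted p = 0.000705). For Tgfb1 the lowest HFC animal was above the highest CTD animal by more than 1.5-fold.

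Stellate cell markers were called higher for 2 of 16 (12.5% called, against 29.1% of all genes). None was called higher without 414 or CTD animal 303, and 1 without 298, 304 or 540. Dcn, decorin, read 115, 131, 119.6 and 141 CPM on CTD against 201, 127, 141 and 145 CPM on HFC and was not called (0.28, adjusted p = 0.121). Cholangiocyte and progenitor genes were called higher for 6 of 12 (50% called, against 29.1% of all genes), and without 414 for 2, with 1 lower. Krt23, a stress-induced keratin, had levels of 5.21, 0.598, 3.31 and 2.06 CPM on CTD against 25.8, 24.7, 16.8 and 22.9 CPM on HFC (log2 fold change 3.001, SE 0.54, adjusted p = 0.00125), with all 4 HFC animals high. The defining bile duct keratin Krt19 was not called (1.83 to 4.88 CPM on CTD and 1.55 to 4.43 CPM on HFC, -0.38, adjusted p = 0.465). Animal 414 thus stood highest for matrix, protease, stellate and progenitor genes together, and the part of cell composition in this was not tested.

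**Figure D2:**
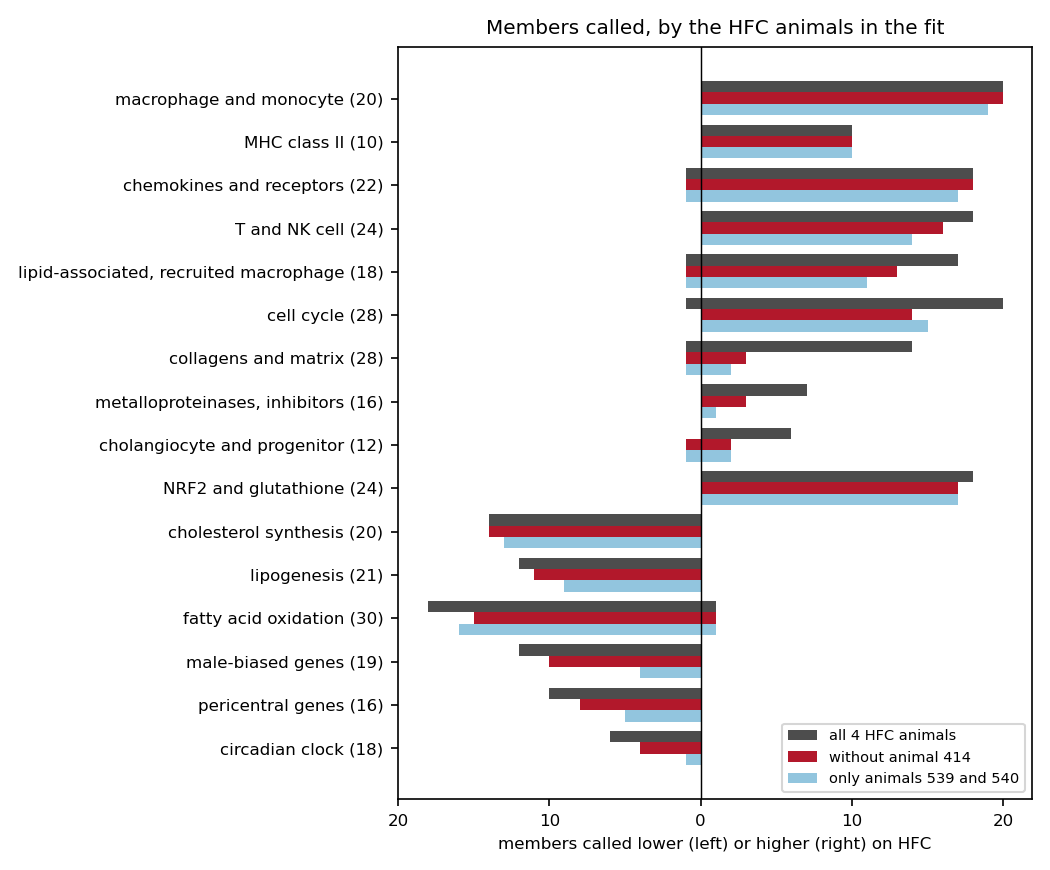
Number of members called higher (right of 0) or lower (left) at adjusted p under 0.05 in 16 gene lists, with the number tested in parentheses, for all 4 HFC animals, without animal 414, and with only animals 539 and 540. The general macrophage and monocyte, MHC class II and cholesterol synthesis counts move by at most 1 member, the lipid-associated and recruited macrophage list goes from 17 higher to 13 and 11, and collagens and matrix go from 14 higher to 3 and 2.

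Cholesterol synthesis fell. Of its 20 genes 14 were called lower and none higher (median -0.82), every member had a negative fold change, and 14 were again lower without animal 414. Tm7sf2, a sterol reductase late in the pathway, read 68.4, 84.3, 68.4 and 55.6 CPM on CTD against 17.8, 25.9, 23.1 and 24.7 CPM on HFC (log2 fold change -1.60, SE 0.16, adjusted p = 3.87e-06), and Nsdhl, a sterol dehydrogenase, stood at 34.4, 52.1, 41.4 and 33.5 CPM on CTD against 14.03, 12.9, 10.8 and 12.02 CPM on HFC (log2 fold change -1.70, SE 0.23, adjusted p = 9.77e-05). Ebp, a sterol isomerase, fell by 0.77 (adjusted p = 1.01e-05). The early enzyme Hmgcs1 was not called (51.6 to 73.1 CPM on CTD and 52.2 to 72.9 CPM on HFC, -0.15, adjusted p = 0.647). Scap, the escort protein that carries SREBPs for activation, was measured at 129, 106, 117 and 114 CPM on CTD against 63.3, 84.2, 76.8 and 70.9 CPM on HFC (log2 fold change -0.66, SE 0.12, adjusted p = 0.000596), and Srebf2, which encodes SREBP2, fell by 0.58 (adjusted p = 0.00313), a call lost with library totals. The sterol response element TCACNCCAC, searched in the same way as the Y box, was present in 1 of 15 matched synthesis genes, against 1.30% of tested genes. That gene was Hmgcs1, which was not called.

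Genes of the LXR response and sterol efflux were called higher for 8 of 13 and lower for none (median 0.41). Abcg1, which exports cholesterol to lipoproteins, read 8.16, 6.08, 5.996 and 6.48 CPM on CTD against 41.3, 27.5, 28.8 and 30.4 CPM on HFC (log2 fold change 2.26, SE 0.16, adjusted p = 2.36e-07). Abcg5, part of the transporter that secretes sterol into bile, had levels of 129, 105, 133 and 131 CPM on CTD against 209, 289.5, 432 and 342 CPM on HFC (log2 fold change 1.36, SE 0.18, adjusted p = 3.74e-05). Lpl, lipoprotein lipase, read 27.8, 16.4, 28.6 and 21.7 CPM on CTD against 241, 190.3, 80.7 and 129 CPM on HFC (log2 fold change 2.76, SE 0.38, adjusted p = 0.000153), and Soat1, which esterifies cholesterol, rose by 1.36 (adjusted p = 2.53e-05). The 4 HFC animals lay close together on the mean of this list, between 0.80 and 0.86. Nr1h3, which encodes LXR alpha itself, was not called (-0.19, adjusted p = 0.0571).

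Genes of bile acid synthesis were called lower for 7 of 16 genes and higher for 2 (56.25% called, against 29.1% of all genes). Cyp7a1, the rate-limiting enzyme of the classic pathway (chr4:6265612-6275633, GRCm38), stood at 77.98, 115, 129.6 and 232 CPM on CTD against 3.46, 7.09, 12.3 and 6.97 CPM on HFC (log2 fold change -4.22, SE 0.67, adjusted p = 0.000530). Cyp8b1, the 12-alpha-hydroxylase needed for cholic acid (chr9:121914356-121916305, GRCm38), was measured at 152, 132, 132 and 189 CPM on CTD against 0.521, 1.23, 2.56 and 0.163 CPM on HFC (log2 fold change -7.09, SE 0.68, adjusted p = 1.01e-05). Both were far below every CTD animal in each of the 4 HFC animals. Cyp27a1, which starts the alternative pathway, fell by 0.79 (adjusted p = 0.000130), as did Nr1h4, the bile acid receptor FXR, by 0.69 (adjusted p = 0.000174). Cyp2c70, the enzyme of muricholic acid formation in mice, was higher at 315, 298, 368 and 306 CPM on CTD against 472, 529, 569.8 and 569 CPM on HFC (log2 fold change 0.73, SE 0.19, adjusted p = 0.00786). The list's median of -0.24 turned to 0.03 with library totals.

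Bile acid transporters split by direction, with 3 of 10 called higher and 3 lower (60% called, against 29.1% of all genes). Slc10a1, the main uptake transporter from portal blood, read 862, 853, 814 and 883 CPM on CTD against 258, 401, 393 and 216 CPM on HFC (log2 fold change -1.43, SE 0.18, adjusted p = 1.94e-05). Slc51b, a subunit of the basolateral exporter, had levels of 0.328, 0.249, 0.341 and 0.343 CPM on CTD against 4.84, 2.83, 1.74 and 3.38 CPM on HFC (log2 fold change 3.32, SE 0.36, adjusted p = 4.8e-06), and Abcc3, another basolateral exporter, rose by 0.76 (adjusted p = 0.00339). Abcb11, the canalicular bile salt pump, was not called (518 to 635 CPM on CTD and 566 to 758 CPM on HFC, 0.20, adjusted p = 0.219).

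**Figure D3:**
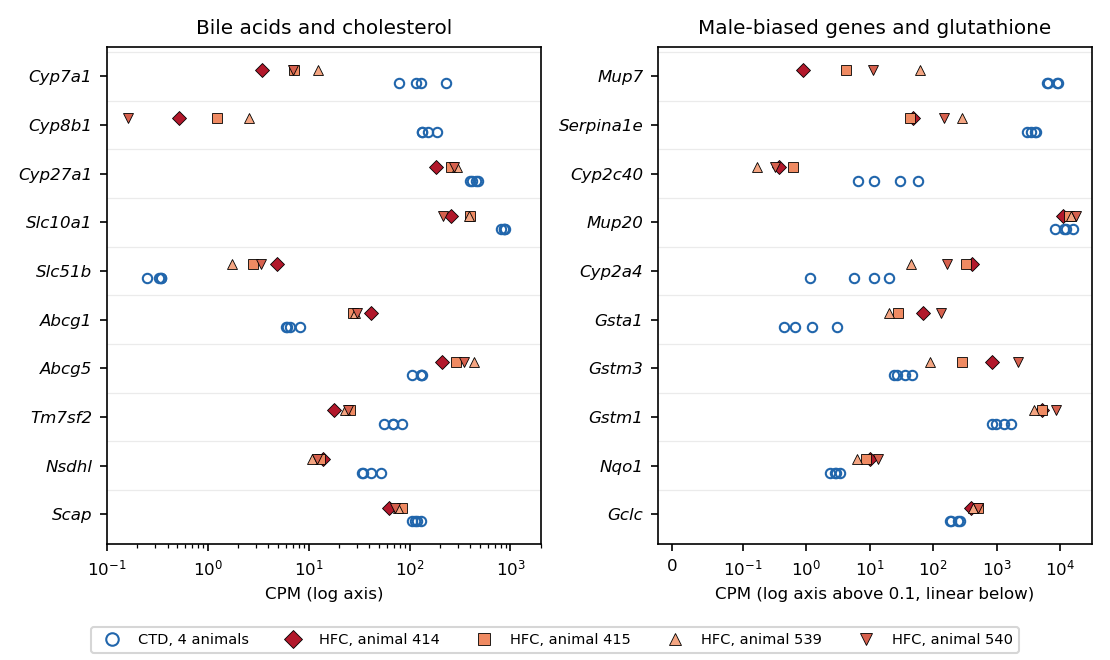
CPM for 10 genes of bile acid and cholesterol handling (left, log axis) and 10 other liver genes (right, log above 0.1 CPM and linear below), 1 point per KO male. The genes on the right are male-biased genes, the cytochromes Cyp2c40 and Cyp2a4, and NRF2 and glutathione genes. Cyp2a4 belongs to the female-biased list. Cyp7a1 and Cyp8b1 lie far below the CTD animals in all 4 HFC animals, and Mup20 overlaps between the diets while Mup7 does not.

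The lists of fatty acid synthesis and oxidation genes both had negative medians. In lipogenesis 12 of 21 were called lower and none higher (median -0.56). Thrsp, a lipogenic regulator, read 187, 267, 326 and 289 CPM on CTD against 76.1, 46.04, 85.4 and 64.9 CPM on HFC (log2 fold change -1.97, SE 0.28, adjusted p = 0.000119), and Acss2, which makes acetyl-CoA from acetate, fell by 1.14 (adjusted p = 0.00108). Scd1, the main stearoyl-CoA desaturase, was not called (13433 to 20573 CPM on CTD and 14413 to 18564 CPM on HFC, 0.05, adjusted p = 0.886). In fatty acid oxidation and PPAR alpha targets 18 of 30 were called lower and 1 higher (median -0.36), a count of 7 lower and 3 higher with library totals. The mean of this list in HFC animal 415, -0.05, lay within the CTD range of -0.12 to 0.11. Cpt1a, the gate of mitochondrial fatty acid entry, stood at 677, 811, 693 and 806 CPM on CTD against 479.98, 509, 453 and 451 CPM on HFC (log2 fold change -0.66, SE 0.09, adjusted p = 3.99e-05). The member that rose was Ehhadh, a peroxisomal enzyme, at 278, 267, 239 and 332 CPM on CTD against 442, 686, 434 and 594 CPM on HFC (log2 fold change 0.95, SE 0.22, adjusted p = 0.00444).

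Lipid droplet and uptake genes were called lower for 5 of 16 and higher for 2 (43.75% called, against 29.1% of all genes). Plin5, a droplet coat protein of oxidative cells, was measured at 42.6, 62.8, 44.1 and 70.02 CPM on CTD against 24.3, 28.9, 25.3 and 26.4 CPM on HFC (log2 fold change -1.07, SE 0.15, adjusted p = 0.0001001). G0s2, an inhibitor of the lipase ATGL, read 43.8, 120.5, 46.9 and 66.7 CPM on CTD against 23.5, 20.9, 13.4 and 7.905 CPM on HFC (log2 fold change -2.08, SE 0.38, adjusted p = 0.00125). Plin2, the general droplet coat protein, was not called (304 to 471 CPM on CTD and 285 to 441 CPM on HFC, -0.07, adjusted p = 0.827). The list's median of -0.13 became 0.15 with library totals. Among glucose and insulin genes 8 of 20 were called lower and 3 higher (55% called, against 29.1% of all genes). Pck1, a rate-limiting enzyme of gluconeogenesis, had levels of 3723, 4751, 4321 and 3838 CPM on CTD against 1382, 1916, 2648 and 2065 CPM on HFC (log2 fold change -1.05, SE 0.22, adjusted p = 0.00175), and Hk3, a hexokinase of myeloid cells, read 3.38, 2.84, 2.49 and 3.19 CPM on CTD against 14.8, 12.1, 14.4 and 15.4 CPM on HFC (log2 fold change 2.25, SE 0.22, adjusted p = 2.02e-06). All 3 members that rose were hexokinases (Hk1, Hk2 and Hk3).

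NRF2 targets and glutathione genes were called higher for 18 of 24 and lower for none (median 1.10), and for 17 without animal 414. Nqo1, a quinone reductase, stood at 2.34, 2.99, 2.83 and 3.43 CPM on CTD against 10.3, 8.77, 6.24 and 13.4 CPM on HFC (log2 fold change 1.74, SE 0.26, adjusted p = 0.000102). Gclc, the catalytic subunit of glutathione synthesis, was measured at 260.3, 188, 249 and 185 CPM on CTD against 398, 502, 428 and 504 CPM on HFC (log2 fold change 1.05, SE 0.18, adjusted p = 0.000472). The glutathione transferase Gstm3 read 36.3, 24.1, 26.7 and 45.8 CPM on CTD against 849, 279, 88.7 and 2174 CPM on HFC (log2 fold change 4.67, SE 1.23, adjusted p = 0.0128), and Gsta1 had levels of 0.656, 0.448, 1.22 and 3.04 CPM on CTD against 69.8, 27.6, 19.8 and 134 CPM on HFC (log2 fold change 5.55, SE 1.19, adjusted p = 0.00391). Here animal 540, not 414, was highest and 539 lowest, and the mean of the list read 1.29, 1.05, 0.91 and 1.71 in 414, 415, 539 and 540. Gsta1 and its near-identical neighbour Gm10639 may share reads, so their separate levels are uncertain. Gstp1 was not called (1245 to 2498 CPM on CTD and 999.9 to 1954 CPM on HFC, -0.53, adjusted p = 0.203). The antioxidant response element TGACNNNGC, searched on both strands within 250 bases before the start, was present in 6 of 20 matched members, against 13.9% of tested genes. Those 6 included Gsta3, which was not called, while the matched genes Nqo1, Gstm3 and Gsta1 held no copy.

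Male-biased liver genes, which depend on the pulsed growth hormone of males, included the largest fall named here, that of Mup7. Of 19 tested 12 were called lower and none higher (median -2.30). Mup7, which encodes a secreted pheromone carrier (chr4:60066469-60070475, GRCm38), read 6321, 8915, 6120.1 and 9316 CPM on CTD against 0.893, 4.18, 61.1 and 11.2 CPM on HFC (log2 fold change -8.63, SE 1.76, adjusted p = 0.00298). Serpina1e, a variant of alpha-1-antitrypsin, stood at 3458, 2981, 4069 and 4014 CPM on CTD against 47.7, 43.3, 283 and 147 CPM on HFC (log2 fold change -4.80, SE 1.05, adjusted p = 0.00448). Mup20, the male urinary pheromone darcin, was measured at 11611, 8155, 16088 and 12139 CPM on CTD against 11208, 13907, 14798 and 17659 CPM on HFC and was not called (0.26, adjusted p = 0.654). The HFC animals differed widely, with list means of -4.72, -3.54, -1.88 and -2.91 in 414, 415, 539 and 540, and with only 539 and 540 on HFC 4 of the 19 were called. Mup and Serpina1 genes are near-identical copies, so counts of single members are uncertain.

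By fold, the largest falls and rises were looked up for called genes whose mean reached 5 CPM on either diet, without overlap between the diets. Of the 8 largest falls 5 were Mup genes: beside Mup7 these were Mup15 (-7.24, adjusted p = 0.0123), Mup17 (-6.72, adjusted p = 0.00527), Mup19 (-5.34, adjusted p = 0.0452) and Mup12 (-4.84, adjusted p = 0.000831). Cyp8b1 and the cytochromes Cyp2c40 and Cyp2c69, of a cluster of near-identical copies, made up the others. Cyp2c40 read 56.5, 11.7, 30.4 and 6.48 CPM on CTD against 0.372, 0.615, 0.165 and 0.326 CPM on HFC (log2 fold change -6.13, SE 1.03, adjusted p = 0.000813), and Cyp2c69 fell by 6.11 (adjusted p = 0.000802) to 0 to 4 counts per HFC library. The 8 largest rises were Gsta1, its neighbour Gm10639 (6.15, adjusted p = 0.00403, from 1 to 3 counts per CTD library), Gstm3, Acod1, Gpnmb, Ubd, Cyp2a4 and Akr1b7. Akr1b7, an aldo-keto reductase of lipid aldehydes, had levels of 0.563, 0.349, 0.341 and 0.196 CPM on CTD against 6.47, 3.73, 0.951 and 10.5 CPM on HFC (log2 fold change 3.88, SE 1.004, adjusted p = 0.0110). Animal 540 was the highest HFC animal for Akr1b7, as for Gsta1, and 539 the lowest.

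Of 10 female-biased genes tested 3 were called higher and 2 lower (50% called, against 29.1% of all genes). Cyp2a4, a steroid hydroxylase with a near-identical paralogue in Cyp2a5, read 19.9, 1.15, 11.7 and 5.64 CPM on CTD against 405, 333, 43.9 and 162 CPM on HFC (log2 fold change 4.61, SE 1.13, adjusted p = 0.00880), and Rtn4, the reticulon Nogo, had levels of 49.6, 60.4, 63.7 and 60.7 CPM on CTD against 137, 124, 111 and 138 CPM on HFC (log2 fold change 1.12, SE 0.11, adjusted p = 1.7e-06). Cyp17a1, a steroid-converting cytochrome, went the other way at 34.9, 86.5, 31.1 and 53.1 CPM on CTD against 5.36, 6.56, 5.41 and 3.14 CPM on HFC (log2 fold change -3.33, SE 0.36, adjusted p = 1.83e-05). The other member called lower was Cyp2c69 (-6.11), given above among the largest falls. Among growth hormone signalling genes 3 of 12 were called lower and 1 higher, a share of 33.3% near the 29.1% of all genes: Ghr, the receptor, read 501, 473, 527 and 464 CPM on CTD against 252, 333, 413 and 278 CPM on HFC (log2 fold change -0.62, SE 0.14, adjusted p = 0.00303), and Igfals, which stabilises IGF-I in blood, fell by 0.87 (adjusted p = 0.00971). Stat5b, the transcription factor downstream of the receptor, was not called (0.17, adjusted p = 0.257).

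Hepatocytes differ along the liver lobule, from the portal vein to the central vein. Pericentral genes were called lower for 10 of 16 and higher for none (median -0.66), with 8 lower without animal 414 and 6 with library totals. Glul, glutamine synthetase of the innermost hepatocytes, stood at 856, 1119, 894 and 1014 CPM on CTD against 385, 551, 720.4 and 466 CPM on HFC (log2 fold change -0.87, SE 0.18, adjusted p = 0.00197), and Cyp2e1 fell by 1.07 (adjusted p = 0.00132). Periportal genes were called lower for 7 of 16 and higher for 3, and the mean of the list in animal 539 lay within the CTD range. Asl, argininosuccinate lyase of the urea cycle, was measured at 388, 468, 391 and 588 CPM on CTD against 166, 227, 259.7 and 187 CPM on HFC (log2 fold change -1.13, SE 0.17, adjusted p = 0.000163), while Ctsc, a lysosomal protease that leukocytes also express, rose by 0.87 (adjusted p = 0.00158). Hepatocyte identity genes were called lower for 6 of 18 (33.3% called, against 29.1% of all genes) and for 3 without 414. Alb, albumin, read 67557, 63646, 72562 and 82836 CPM on CTD against 54718, 63333, 50366 and 52634 CPM on HFC and missed the threshold (-0.37, adjusted p = 0.0763), although its levels did not overlap.

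Cell cycle genes were called higher for 20 of 28 and lower for 1 (median 1.34), and for 14 without animal 414. Top2a, the mitotic topoisomerase, had levels of 2.06, 2.64, 2.34 and 1.86 CPM on CTD against 9.08, 5.49, 4.13 and 12.3 CPM on HFC (log2 fold change 1.80, SE 0.27, adjusted p = 0.000128), and Plk1, a mitotic kinase, read 0.469, 0.398, 0.244 and 0.343 CPM on CTD against 3.42, 1.11, 1.199 and 2.85 CPM on HFC (log2 fold change 2.54, SE 0.44, adjusted p = 0.000393). Animals 414 and 540 were high, at list means of 1.24 and 1.20, and 415 and 539 stood at 0.50 and 0.34. The replication factors Pcna (0.08, adjusted p = 0.485) and Tyms (-0.08, adjusted p = 0.492) were not called. In the p53 target list 5 of 16 were called higher, and 3 without 414. The share of 31.2% called was near the 29.1% of all genes. Among those called was Pmaip1, the apoptosis factor Noxa, at 0.703, 0.847, 0.829 and 0.638 CPM on CTD against 2.53, 1.89, 2.03 and 3.42 CPM on HFC (log2 fold change 1.70, SE 0.25, adjusted p = 7.28e-05).

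In the Myc network 3 of 11 were called lower and none higher (27.3% called, against 29.1% of all genes), with 1 lower without animal 303, 414 or 415. Mycl, a paralogue of Myc, stood at 11.3, 9.21, 10.9 and 10.7 CPM on CTD against 5.17, 7.01, 5.83 and 3.46 CPM on HFC (log2 fold change -0.97, SE 0.23, adjusted p = 0.00493). In the ribosome biogenesis list of Myc targets 2 of 20 were called lower (10% called), Odc1 and Nolc1, with 1 lower without animal 303, 311, 415 or 539. With library totals 6 were called higher and none lower. Nucleolin, Ncl, was not called (128 to 145 CPM on CTD and 124 to 133 CPM on HFC, -0.12, adjusted p = 0.224). Unfolded protein response genes were called higher for 2 of 18 (11.1% called, and 1 gene when animal 414 or any single CTD animal is left out), including Ddit3, the transcription factor CHOP, at 2.86, 3.39, 3.27 and 4.22 CPM on CTD against 8.07, 5.04, 4.42 and 8.72 CPM on HFC (log2 fold change 0.94, SE 0.22, adjusted p = 0.00450). Clock genes were called lower for 6 of 18, a share of 33.3% near the 29.1% of all genes. Hlf, an output transcription factor, was measured at 93.6, 99.6, 99.7 and 98.2 CPM on CTD against 46.5, 69.1, 67.7 and 45.1 CPM on HFC (log2 fold change -0.78, SE 0.13, adjusted p = 0.000301). Without animal 539 the clock count was 10 lower and 1 higher, and with only 539 and 540 it was 1 lower.

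Lysosomal genes were called higher for 11 of 24 and lower for 1 (50% called, against 29.1% of all genes). Ctss, a cathepsin of antigen-presenting cells, read 24.7, 28.99, 25.2 and 29.2 CPM on CTD against 134, 85.8, 107 and 117 CPM on HFC (log2 fold change 2.04, SE 0.19, adjusted p = 3.05e-06). Lamp1, an abundant lysosomal membrane protein, was not called (545 to 565 CPM on CTD and 557 to 616 CPM on HFC, 0.07, adjusted p = 0.540). Acute phase genes were called higher for 4 of 18 and lower for 1, a share of 27.8% near the 29.1% of all genes. Saa3, a serum amyloid A of macrophages and other cells, had levels of 3.05, 6.13, 6.68 and 3.97 CPM on CTD against 10.5, 22.9, 36.2 and 28.2 CPM on HFC (log2 fold change 2.30, SE 0.54, adjusted p = 0.00645), and here animal 414 was the lowest of the HFC animals. CTD animal 303 stood apart in this list, with a mean of 1.05 against -0.58 to -0.19 in the other CTD animals.

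Among red cell, adipocyte and exocrine pancreas markers, from tissues that can be carried over at dissection, only Cela1 was called, lower on HFC. Of 6 red cell genes none was called (1 lower without animal 539), at summed levels of 386 to 488 CPM on CTD and 299 to 578 CPM on HFC. No adipocyte marker reached the level for testing, and Lep was at 0 counts in all 8 animals. Of 8 exocrine pancreas markers 5 were at 0 in all 8 animals. Cela1, a chymotrypsin-like elastase, fell from 5.21, 6.82, 8.04 and 7.66 CPM to 2.57, 2.501, 2.85 and 3.02 CPM (log2 fold change -1.34, SE 0.16, adjusted p = 1.26e-05).

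**Figure D4:**
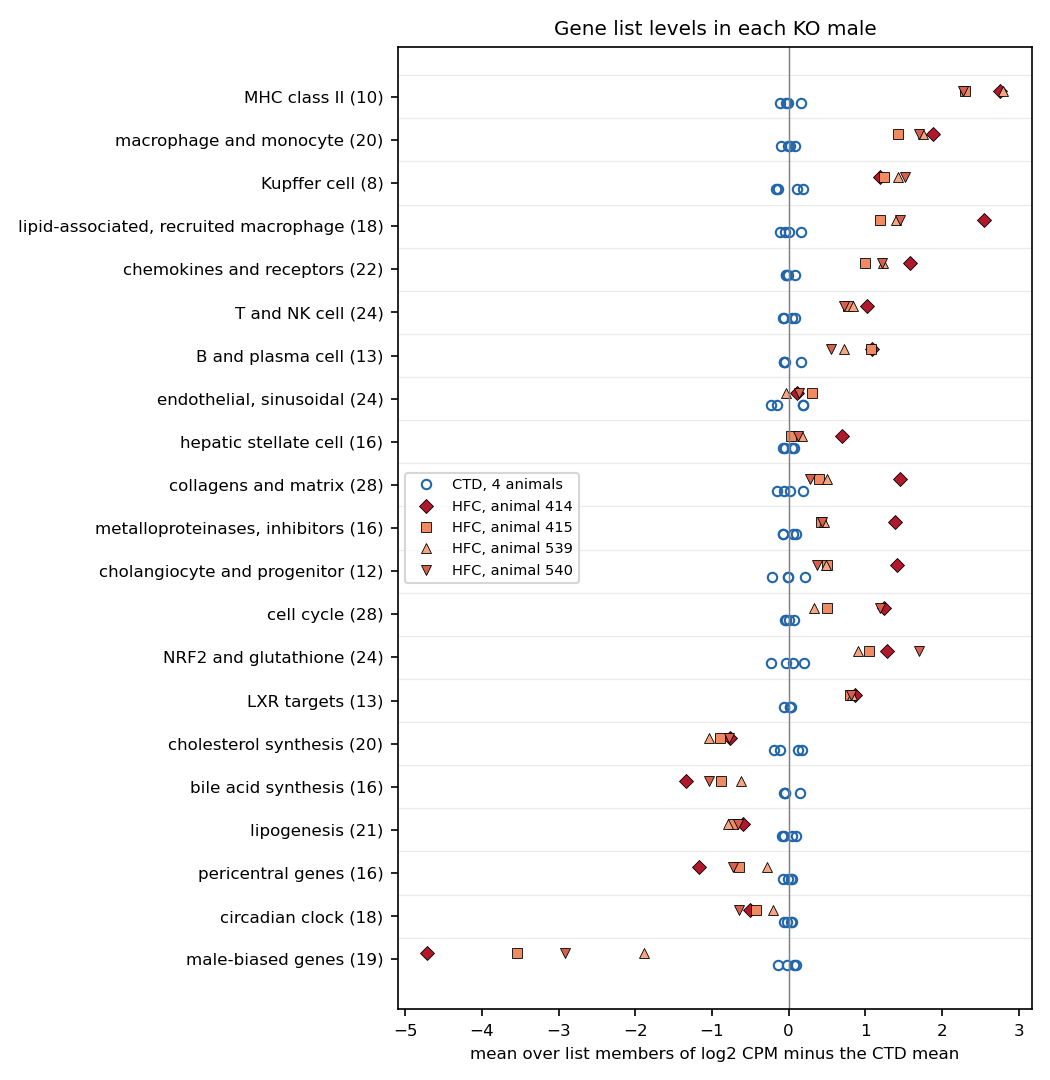
Mean over the members of 21 gene lists (number tested in parentheses) of log2 CPM minus the CTD mean, 1 point per KO male, with CTD animals as open circles and each HFC animal with its own symbol. HFC animals lie together for LXR targets (0.80 to 0.86), while 414 lies apart for matrix genes (1.45) and the male-biased genes spread from -4.72 to -1.88.

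Whether these diet changes differ by genotype was tested by the difference between the KO and CT males in their response to HFC. CT males, 4 on each diet, had 2820 genes called (20.0%), 1497 higher (10.6%) and 1323 lower (9.40%). No gene was called for the difference by edgeR (852 at an unadjusted p under 0.05, smallest adjusted p = 0.415) or by limma, and 5 were called by DESeq2. The median diet change of the macrophage and monocyte list was 1.79 in KO males and 1.03 in CT males, and that of MHC class II genes 3.06 and 2.05. In CT males too, 18 of the 20 macrophage genes and 9 of the 10 class II genes were called higher. For all 20 macrophage genes the difference was positive, and 19 of the 20 had an unadjusted p under 0.05, against 852 of 14078 over all genes. These 20 genes are read in the same 16 animals and do not count as separate evidence, and none passed the adjustment.

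The gene with the smallest p for the difference was Clec1b, a lectin receptor of Kupffer cells, with a log2 change of 1.21 in KO males and 0.27 in CT males (difference 0.94, adjusted p = 0.415). Treml4, a receptor of splenic and resident macrophages, changed by 2.03 and 0.90 (difference 1.13, adjusted p = 0.415), and Clec12a, a myeloid inhibitory lectin, by 1.94 and 1.02. Kcna2, a voltage-gated potassium channel, read 5.67, 5.78, 4.39 and 7.12 CPM on CTD against 17.3, 16.8, 17.3 and 15.4 CPM on HFC, a change of 1.54 against 0.60 in CT males. The pseudogene Nxpe1-ps changed by 2.49 in KO and -0.24 in CT males, at under 1 CPM in every KO male and from 1 to 4 counts per CTD library. These 5 genes had the smallest p-values for the difference, and Clec1b, Kcna2 and Treml4 are 3 of the 5 called by DESeq2. Metabolic lists varied. The median of cholesterol synthesis was -0.82 in KO and -0.86 in CT males, and that of NRF2 and glutathione genes 1.10 and 1.16. Fatty acid oxidation genes had medians of -0.36 and -0.14, with 18 called lower in KO and 6 in CT males, and 5 of the 30 had an unadjusted p under 0.05 for the difference. Pericentral genes had medians of -0.66 and -0.42, with 10 and 4 called lower. No single gene of these lists was called for the difference by edgeR.

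The same diet contrast was read in KO females, 3 on each diet, fitted in their own table. There 1202 of 13999 genes were called (8.59%), 551 higher and 651 lower. Of 13738 genes tested in both sexes 4048 were called in males, 1175 in females and 826 in both. For 822 of the 826 the direction was the same, 363 higher and 459 lower. Those 822 are 20.3% of the 4048 and 70.0% of the 1175. Genes called in KO males had the same sign in KO females for 93.2%, against 74.0% of all genes tested in both. The difference between the sexes was not tested, and the female group is smaller.

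In KO females cholesterol synthesis was called lower for 18 of 20 genes (median -1.47) and NRF2 and glutathione genes higher for 16 of 24. Cyp8b1 fell by 9.16 there (adjusted p = 1.99e-08) and Cyp7a1 fell by 5.16 (adjusted p = 0.00165). Macrophage and MHC class II genes had positive medians of 1.05 and 1.78, and none of the 20 and none of the 10 was called. Gpnmb rose in females by 5.94 (adjusted p = 0.00497) and Mmp12 by 3.42 (adjusted p = 0.0110). B and plasma cell genes had a female median of 0.20 against 1.38 in KO males.

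**Figure D5:**
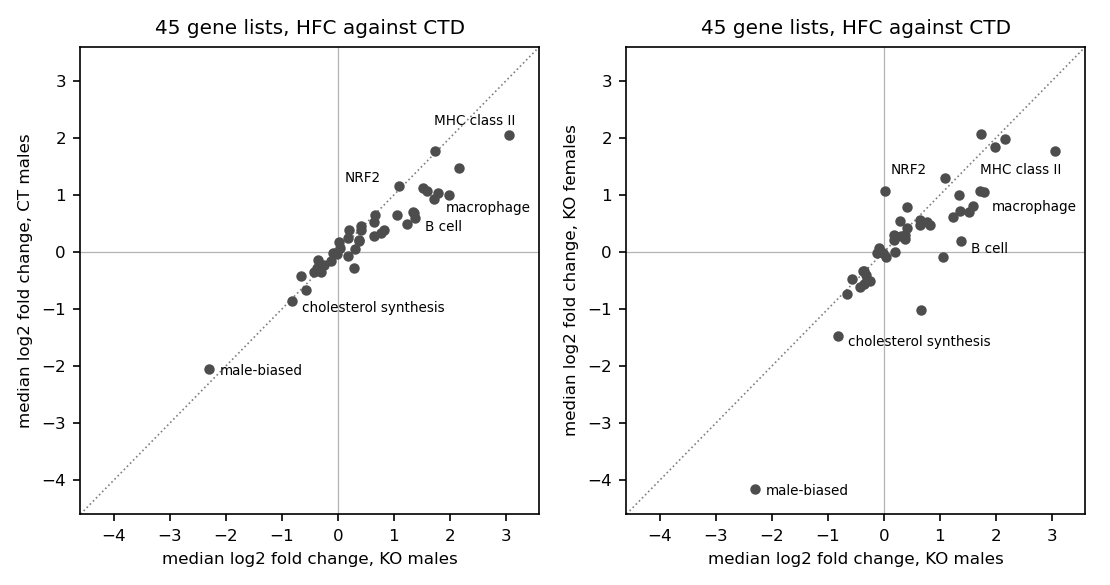
Median log2 fold change of HFC against CTD for 45 gene lists with at least 6 tested members, in KO males (x axis) against CT males (left) and KO females (right), 1 point per list, with the dotted line marking equal values. Of 30 lists with a positive KO male median, 23 had a lower median in CT males, and 4 lists had opposite signs in KO males and KO females.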

How the data were processed

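Whole-liver RNA of single mice was sequenced, and the authors deposited raw counts per gene and CPM. In males the deposited CPM equal each count divided by its library total and scaled, within 4.99e-06. FastQC, edgeR and GRCm38 (mm10) are named per the submitters' processing notes; the sources used here give no aligner, counting program, annotation or strand setting, so overlapping and antisense genes cannot be told apart. The members and gene lists were chosen with earlier results of these data known.

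Counts were fitted with edgeR 4.0.16 (R 4.3.3) by robust quasi-likelihood F tests with TMM factors and filterByExpr, over all 16 male libraries with a mean per group, and over all 12 female libraries for the females. Genes were called at a Benjamini-Hochberg adjusted p under 0.05 over all genes tested. The common biological coefficient of variation came to 0.161 (males) and 0.199 (females). Standard errors are the fold change divided by the square root of F, an approximation. Every adjusted p is from edgeR unless another tool is named. Replicate libraries differed beyond counting noise (chi-square per degree of freedom at least 11.9), so none was counted as a duplicate.

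Alternatives were library totals, size factors, no filter, DESeq2 1.42.0, limma 3.58.1 on log2 of the deposited CPM with a pseudocount of 0.5, only the compared groups, each animal left out, and HFC animals in pairs by number. The fit was tested on simulated counts for the real genes, and made 6 false calls among 13878 unchanged genes for the diet contrast and 3 for the genotype difference. Far fewer genes were changed there than were called in the data, so these rates may not hold for the data.

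The 47 lists hold 801 genes, of which 800 are in the table and 753 were tested. Named genes were Myc, the 8 largest rises and falls with a mean reaching 5 CPM and no overlap, the called list members with the smallest adjusted p (up to 4 each way), the 2 uncalled members with the highest mean, and the 5 smallest p-values of the genotype difference; some list members were left out. Gbp2, other genes named only for a promoter element and the genes under other observations lie outside this rule and were chosen after their values were seen. Coordinates come from GENCODE on GRCm38, matched for 96.5% of symbols, and promoters from RefSeq (GRCm38.p6).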

Additional observations from a re-analysis of the deposited data

Results flagged for a closer look

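Among the 4 animals of each diet, 1 animal can lie apart from the other 3. This was examined by Dixon's ratio for 149 genes, the gene lists and 5 library measures, each within both diets, and 37 of these groups (9.25%) passed the 95% limit. The limit is passed by about 1 in 20 groups of independent, normally distributed values. The genes here were those chosen for the text, some also belong to the lists, and near-identical Mup genes count separately. The share of groups passing therefore cannot be set against chance. Of the 17 found on HFC, 8 were animal 414 lying above the others.

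On HFC, animal 414 was apart and high for Bgn (196 CPM), Fbn1 (10.9 CPM), Gpnmb (71.5 CPM), Mmp12 (57.0 CPM) and Tnf (1.60 CPM). It was also apart for the mean of the metalloproteinase list (1.38), the cholangiocyte and progenitor list (1.41) and the dendritic cell list (1.33), in log2 units above the CTD mean. Animal 539 was apart and high for Mup7 (61.1 CPM), Mup15 (41.0 CPM), Mup17 (36.7 CPM), Mup19 (453 CPM) and Nlrc5 (52.4 CPM). Animal 540 was apart and high for Hmgcs1 (72.9 CPM) and S100a8 (3.99 CPM), and low for Zbtb46 (3.14 CPM) and its total of 22196484 counts.

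On CTD, animal 303 was apart and high for Cxcl1 (22.3 CPM), Mup19 (8138 CPM), Nr1h4 (167 CPM) and Slc22a7 (36.9 CPM), and low for Abcg5 (105 CPM) and Slc51b (0.249 CPM). Animal 311 was apart and high for H2-DMb1 (2.90 CPM), Nlrc5 (32.7 CPM) and Adssl1 (16.05 CPM), for its total of 22611870 counts, and for the means of the dendritic cell (0.0959), bile acid synthesis (0.155) and periportal lists (0.202). It was low for the unfolded protein response list (-0.116). Animal 298 was high for Tgfb1 (9.71 CPM) and the B and plasma cell list (0.162), and low for Ccr2 (0.703 CPM) and Muc16 (1.97 CPM). Animal 304 was high for Clec12a (4.44 CPM) and low for Cd44 (6.04 CPM). No gene reported here moved one way in every KO male and the opposite way in every CT male.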

How the results depend on the processing

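The diet count in KO males, 4102, was 4040 with median-of-ratios size factors, 4324 with DESeq2, 3757 with no filter on low counts, 3610 with only the compared groups in the fit and 3423 with only HFC animals 414 and 415. With only animals 539 and 540 it was 2505 (1472 higher, 1033 lower), of which 2418 were among the 4102. With 1 animal left out it ranged from 3064 (without 414) to 4089. With library totals it was 6092, and by limma on log2 of the deposited CPM 6044 (5521 higher, 523 lower). Of 199 named genes called, 20 lost the call with library totals, 44 with only 539 and 540, and 5 to 20 with 1 animal left out. The genotype difference gave 5 genes by DESeq2 (3 higher, 2 lower), where Gm10359 and Gm12671 both had a fitted value of -25.07 (edgeR adjusted p = 0.927), and 0 in every other setting run. The KO female count, 1202, was 3737 with library totals, 1884 with DESeq2, 3361 by limma, 435 with only the compared groups, and 566 to 2671 with 1 animal left out (2671 without 413).

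Some values changed sign. Trp53inp1 read -0.65 with only 414 and 415, and Npm1 0.28 with library totals and 0.27 by limma. The acute phase median read -0.025 with only 414 and 415. The lipid droplet median read 0.15 with library totals and 0.14 by limma, and the Myc network median 0.18 with each. The cause of these changes was not tested beyond the scaling itself, which moved the median of all genes. No paired analysis was possible because animal numbers are not shared between groups.

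Genes with a few counts per CTD library (Acod1, Tnf, Cd3e, Ccr7) have imprecise fold changes. In simulated data of this size, 36% of genes changed by 0.5 on the log2 scale were recovered and 94% of those changed by 2, so smaller changes can be missed.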

Other observations

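Several genes and gene families outside the lists were picked after their values were seen and are given as description. All 11 guanylate-binding protein genes tested, which encode interferon-induced GTPases, were called higher in KO males, with log2 fold changes from 0.61 to 3.40 and a median of 2.06 (1.24 in CT males). Values for 3 other interferon-inducible GTPases differed in size. Tgtp1 was measured at 4.78, 4.08, 5.996 and 7.66 CPM on CTD against 60.9, 71.3, 74.9 and 65.97 CPM on HFC (log2 fold change 3.60, SE 0.27, adjusted p = 9.69e-07), and Gvin1 read 25.3, 19.5, 26.3 and 34.3 CPM on CTD against 191, 194, 226 and 224 CPM on HFC (log2 fold change 2.98, SE 0.22, adjusted p = 6.42e-07). For Tgtp1 and Gvin1, the 4 HFC animals differed from each other by less than 1.3-fold, and animal 414 was the lowest. Iigp1, a member of the class I and interferon list, was not called at 420.2 to 463 CPM on CTD and 461 to 535 CPM on HFC (0.18, adjusted p = 0.196). Of 9 Ms4a genes tested, which encode membrane-spanning proteins mostly of leukocytes, 7 were called higher and none lower.

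A few single genes with clear differences are given without a claim for any group. Bhmt, which remethylates homocysteine with betaine, stood at 698, 1837, 693 and 1771 CPM on CTD against 202, 188, 221 and 290.4 CPM on HFC (log2 fold change -2.47, SE 0.37, adjusted p = 0.000224). Slc22a7, an organic anion transporter of hepatocytes, read 13.4, 36.9, 15.8 and 16.1 CPM on CTD against 1.97, 3.85, 5.21 and 3.22 CPM on HFC (log2 fold change -2.53, SE 0.52, adjusted p = 0.00267), and Lipg, endothelial lipase, had levels of 43.7, 65.6, 72.9 and 47.9 CPM on CTD against 8.97, 9.06, 12.6 and 10.6 CPM on HFC (log2 fold change -2.48, SE 0.38, adjusted p = 0.000385). The 4 HFC animals were below the 4 CTD animals in each. Hsd17b6, a steroid dehydrogenase, rose to 561, 899, 541 and 666 CPM from 193, 48.4, 163 and 124 CPM (log2 fold change 2.34, SE 0.38, adjusted p = 0.000495). Upk3b, a uroplakin, read 4.17, 8.57, 8.77 and 7.704 CPM on CTD against 3.13, 2.13, 0.744 and 1.79 CPM on HFC (log2 fold change -1.89, SE 0.57, adjusted p = 0.0216), and Muc16, a membrane mucin, read 1.97, 7.42, 7.75 and 8.05 CPM on CTD against 1.15, 1.72, 0.248 and 0.733 CPM on HFC (log2 fold change -2.69, SE 0.64, adjusted p = 0.00592). CTD animal 298 was the lowest CTD animal for both.

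Of 36 complex I subunits of the respiratory chain 24 were called lower and none higher, each with a negative fold change (median -0.27, range -0.42 to -0.10). Without animal 414 the count was 14, and in a setting applied after the values were seen, library totals, the median was -0.00 and none was called, so the direction holds only relative to the TMM baseline. Cytosolic ribosomal proteins had a median of -0.00, with 2 of 77 called higher and 3 lower. Among genes called in KO animals of both sexes, 4 moved in opposite directions: Actg1 (0.62 in males, -0.96 in females), Adssl1 (0.52 and -1.01), Car2 (0.42 and -1.07) and Pnpla7 (-0.29 and 0.46). That difference between the sexes was not tested.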
